A study of Macaca mulatta with 449 samples.

Results

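The 4 cerebellin genes, CBLN1, CBLN2, CBLN3 and CBLN4, and GRID1, the gene of a delta glutamate receptor subunit, were followed through the brain of the rhesus macaque. They were taken by gene symbol from the count table, and all 5 had a row among its 30807 genes. The rule itself used no measured value, but the members were chosen with earlier results of these data known. The study had already named CBLN1 and CBLN3 as genes specific to the cerebellum.

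The table held RNA-seq counts of 408 samples, 51 dissected sub-regions from each of 8 macaques. Each animal gave 1 sample of each sub-region, so a level below rests on 8 animals and a comparison of regions is made within animals. Rhesus 2 and Rhesus 3 were males of 10 years, Rhesus 6 was a female of 10 years and Rhesus 11 a female of 9.8 years, which form the mid-aged stage of over 5 years. Rhesus 7 and Rhesus 8 were males of 4 and 3.8 years, and Rhesus 4 and Rhesus 10 were females of 3.2 and 5 years, which form the young stage. The labels name no treatment or genotype for any animal, and the samples were pieces of whole tissue.

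Cerebellins are small secreted proteins of the C1q family that assemble into complexes in the space between nerve cells. In the cerebellum, CBLN1 is released by granule cells, binds neurexins on the axon and takes part in the synapse between parallel fibres and Purkinje cells. CBLN3 is made by the same granule cells and is secreted in complexes with CBLN1. CBLN2 and CBLN4 are made in other parts of the brain, and CBLN4 can also bind the netrin receptor DCC. The delta receptors are built like glutamate receptors but act at the synapse mainly as organisers, and GRID1 is the member found widely in the forebrain.

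Library totals ran from 7784678 to 31083490 counts with a median of 10698602. Levels are given as CPM, counts scaled to the size of the library, after TMM scaling, which evens out differences in library composition, with the SD over 8 animals. Levels of different genes are not compared, since gene lengths were not used. The sub-regions were also pooled into 16 region groups: the cortex with 31 sub-regions, the cerebellum with vermis and cerebellar cortex, the hippocampus with dentate gyrus, CA1 and CA3, the striatum with accumbens, caudate and putamen, and 12 groups of 1 sub-region each. In 7 libraries, picked after their values were seen, a member's level and a cell type marker both lay outside the values of the other 7 animals, and these values are given beside the results they touch. They are the hypothalamus and medulla of Rhesus 6, the thalamus and CA3 of Rhesus 8, the ventral tegmental area of Rhesus 2, the putamen of Rhesus 3 and the cerebellar cortex of Rhesus 4.

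CBLN1 was highest in the cerebellum, at 589 to 845 CPM in the 8 animals with a median of 708 and a mean of 709 ± 99.3. The substantia nigra followed at 79.1 ± 29.3 CPM, with a lowest value of 37.4 and a highest of 126. No cerebellar value overlapped any value of the other 15 groups. In the edgeR quasi-likelihood test over the 16 groups with the animal as a block, the fitted level in the cerebellum was 9.54-fold that in the substantia nigra, a log2 difference of 3.25 ± 0.35 (SE) with an FDR of 6.4e-15, where 76.4% of all genes were called. In whole tissue, fewer cells of a type and less RNA per cell cannot be told apart, here and in every comparison below.

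Below the cerebellum, CBLN1 passed through the hypothalamus (67.8 ± 27.04 CPM), the ventral tegmental area (46.9 ± 25.2), the pons (43.4 ± 9.35), the medulla (29.6 ± 20.6) and the thalamus (29.2 ± 33.9). None of these neighbours in the order differed by the test, from the substantia nigra down to the amygdala (16.1 CPM). At single steps of this run, 11.3% to 65.5% of all genes were called. Neighbours are the pairs closest in level, here and below, and groups further apart in a run can differ. Within this run the entorhinal and perirhinal cortex was below the pons (log2 difference -1.23, FDR 0.00104, 62% of all genes called). The amygdala was above the cortex, which held 6.87 ± 1.22 CPM, by a log2 difference of 1.23 ± 0.34 (FDR 0.00206, 38.4% of all genes called). CBLN1 was lowest in the corpus callosum, with 3 to 18 counts per library, and in the pituitary, with 0 to 6 counts per library.

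The middle of this order varied most between animals. In the thalamus, Rhesus 8 had 110 CPM of CBLN1 against 6.81 to 32.4 CPM in the others, whose mean was 17.7 ± 10.2. In the same library the thalamic gene SLC17A6, a vesicular glutamate transporter, stood at 335 CPM against 738 to 1025. In the medulla, Rhesus 6 had 1.49 CPM of CBLN1 against 17.6 to 63.5, and SLC17A7, the other main transporter of this kind, stood at 2.81 CPM against 50.6 to 143. In the hypothalamus, the same animal had the lowest CBLN1, 27.2 CPM against 37.5 to 111, and 473 CPM of SLC17A7 against 0.959 to 5.11. The part of tissue makeup in these levels was not tested. GABRA6, a receptor subunit that marks cerebellar granule cells, was at 942 CPM in the cerebellar cortex and 1000 CPM in the vermis. It did not exceed 2.29 CPM in any library of the medulla, pons, hypothalamus, thalamus, substantia nigra or ventral tegmental area. The other listed granule cell markers, FAT2, ZIC1, ZIC2 and NEUROD1, are not given here. The part of cerebellar tissue in these CBLN1 levels was not tested.

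CBLN3 was also highest in the cerebellum, which held 556 to 884 CPM with a median of 630 and a mean of 668 ± 114, and the next group, the corpus callosum, held 7.58 ± 2.33 CPM. No cerebellar value came near any value elsewhere, and the fitted difference of the cerebellum over the corpus callosum was 95.4-fold, a log2 difference of 6.58 ± 0.20 (FDR 1.36e-55, 76% of all genes called). Outside the cerebellum, all group means lay between 1.95 CPM in the hippocampus and 7.58 CPM in the corpus callosum. Of the 15 steps between neighbours in the order the first alone passed the test, where 26.6% to 77.8% of all genes did by step. Groups further apart did differ, such as the entorhinal and perirhinal cortex below the pons (log2 difference -0.92, FDR 3.83e-05, 62% of all genes called). Over all 120 pairs of groups CBLN3 differed in 88, and 61.6% of pairs were called over all genes. In RefSeq, CBLN3 overlaps KHNYN, and how the counting treated strand and overlaps is not given in the sources used here. KHNYN stood at 200 ± 45.99 CPM in the cerebellar cortex and 192 ± 24.9 CPM in the vermis, and at 125 CPM in the corpus callosum, so the low CBLN3 counts outside the cerebellum are uncertain.

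CBLN2 was highest in the cortex as a group and lowest in the cerebellum. The cortical value of an animal is the mean of its 31 sub-regions, whose own means ran from 53.1 to 418 CPM. The occipital lobe, at 67.3 CPM, lay below the means of the thalamus, pons and hypothalamus. The entorhinal and perirhinal cortex, a group of its own, held 30.5 CPM. The cortex held 172 to 203 CPM with a median of 188 and a mean of 188 ± 10.1, and the cerebellum held 0.0894 to 1.65 CPM with a mean of 0.814 ± 0.547, from 64 counts in the 8 libraries of the cerebellar cortex and 90 in those of the vermis. Between them lay the thalamus (89.99 ± 87.0 CPM), pons (78.4 ± 30.5), hypothalamus (77.4 ± 30.7), olfactory bulb (57.9), ventral tegmental area (44.2) and medulla (40.6). From the thalamus down to the amygdala (21.1 CPM), no neighbours in this order differed by the test. At single steps of this run, 10.9% to 65.2% of all genes were called. Within it the entorhinal and perirhinal cortex was below the pons (log2 difference -1.33, FDR 0.00156, 62% of all genes called). The globus pallidus (10.5 CPM), corpus callosum (9.39) and pituitary (4.14) came next above the cerebellum.

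The cortex was above the thalamus by a fitted 2.15-fold for CBLN2, a log2 difference of 1.11 ± 0.38 (FDR 0.00872, 56.7% of all genes called). Of the thalamic libraries, 1 lay above the lowest of the cortical values, which are means of 31 sub-regions. That was Rhesus 8 with 279 CPM against 25.4 to 154 in the other animals, the library with the low SLC17A6. Without that animal the log2 difference of cortex over thalamus was 1.67. Other libraries also stood apart for CBLN2. The ventral tegmental area of Rhesus 2 had 137 CPM against 13.7 to 46.6, with 15.1 CPM of the dopamine enzyme TH against 34.1 to 339. The medulla of Rhesus 6 had 0.495 CPM against 7.45 to 89.4, and the hypothalamus of that animal the highest value there, 114 CPM against 37.4 to 112.

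CBLN4 peaked in the pons. The 8 pontine libraries held 242 to 343 CPM with a median of 283 and a mean of 286 ± 31.9, and the combined entorhinal and perirhinal cortex followed with 110 to 183 CPM and a mean of 144 ± 24.9. These values did not overlap, nor did the pons overlap any other group. The fitted difference was 1.96-fold, a log2 difference of 0.97 ± 0.32 (FDR 0.00591, 62% of all genes called). The cortex held 94.9 ± 13.6 CPM, which the test did not separate from the entorhinal and perirhinal cortex (log2 difference -0.62 ± 0.32, FDR 0.122, 34.9% of all genes called) but placed below the pons by 3.00-fold (log2 difference -1.59 ± 0.32, FDR 9.14e-06, 63.4% of all genes called).

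The hypothalamus (65.6 CPM), thalamus (53.1), olfactory bulb (50.8), medulla (47.9), amygdala (37.8) and ventral tegmental area (33.9) formed a run in CBLN4 without a called difference between neighbours. At single steps of this run, 45.2% to 66.3% of all genes were called. The medulla of Rhesus 6 held 3.14 CPM of CBLN4 against 24.2 to 79.99 in the other animals, and its hypothalamus 93.3 CPM against 37.2 to 80.6. The hippocampus followed at 20.1 CPM, then the substantia nigra at 8.00 ± 8.70 and the striatum at 7.63. The cerebellum was at the floor of counting, with 25 CBLN4 counts in all 8 libraries of the cerebellar cortex and 7 in those of the vermis. The pons of each animal was thus rich in CBLN4, poorer in CBLN2 than the cortex (cortex over pons 2.46-fold, FDR 0.00159) and richer in CBLN1 than the cortex (6.14-fold, FDR 4.9e-11).

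GRID1, the receptor gene, had group means between 6.39 and 66.5 CPM. The striatum held 58.6 to 74.8 CPM with a median of 67.1 and a mean of 66.5 ± 5.10, the thalamus 57.1 ± 2.65 and the amygdala 57.0 ± 6.69, and the values of 3 other groups reached into the striatal range. The striatum was above the thalamus by a fitted 1.16-fold (log2 difference of thalamus over striatum -0.22 ± 0.08, FDR 0.0139, 56.2% of all genes called). From the thalamus to the medulla, 11 groups lay between 57.1 and 39.8 CPM, and no neighbours among them differed. At single steps of this run, 28.4% to 76.4% of all genes were called. Groups further apart in it did differ, such as the cortex below the thalamus (log2 difference -0.40, FDR 9.54e-06, 56.7% of all genes called). A step followed to the olfactory bulb (29.1 CPM), pons (27.9 ± 2.51) and cerebellum (26.8 ± 2.22), and the medulla was above the olfactory bulb with an FDR of 3.82e-06 (66.3% of all genes called). The pituitary was lowest at 6.39 ± 1.80 CPM and below the cerebellum with an FDR of 1.06e-43 (76.1% of all genes called). The corpus callosum, which is white matter, held 47.04 ± 5.40 CPM of GRID1 but 0.885 CPM of CBLN1.

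**Figure D1:**
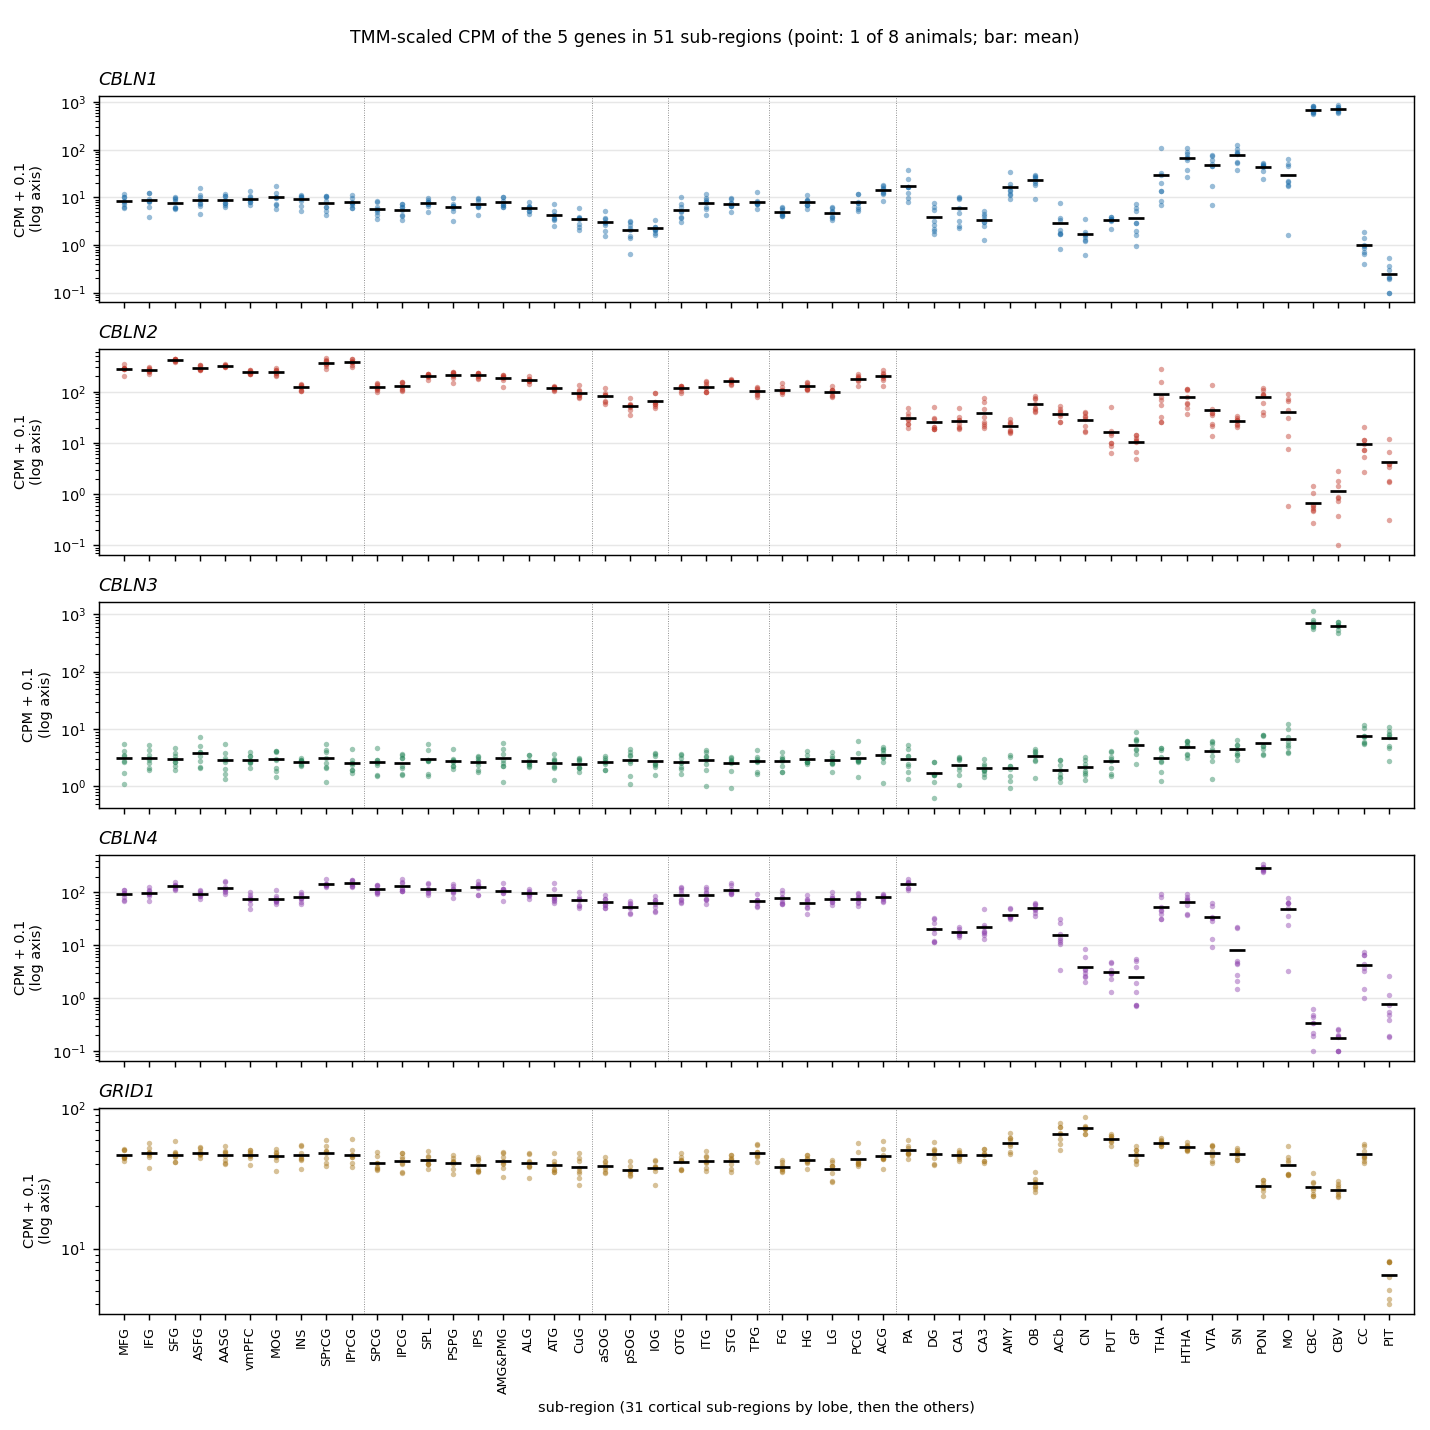
Level of each gene in the 51 sub-regions (CPM after TMM scaling plus 0.1, log axis, 1 panel a gene), with the 31 cortical sub-regions by lobe at the left, where each point is 1 of 8 animals and the bar is the mean. CBLN1 and CBLN3 stand far above all other sub-regions in the cerebellar cortex (CBC) and vermis (CBV). CBLN4 is highest in the pons (PON, 286 CPM), and the CBLN2 means of the cortical sub-regions run from 53.1 to 418 CPM. The GRID1 means lie between 26.3 and 73.0 CPM in all sub-regions but the pituitary (PIT).

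The rule for a call asked for an omnibus FDR under 0.05 and a fitted fold above 2 against each of the other 15 groups. By it, 3 of the 5 genes were called for a group. CBLN1 and CBLN3 were called for the cerebellum, and CBLN2 for the cortex with its 31 sub-regions pooled. The same rule called 11.5% of the 16829 genes tested. CBLN4 in the pons missed the fold by a little (1.96-fold) and GRID1 by far (1.16-fold). The CBLN2 call lies close to the threshold, and it was lost without Rhesus 2, Rhesus 7 or Rhesus 10, with log2 differences over the next group of 0.997, 0.93 and 0.94. Without Rhesus 3, CBLN4 was called for the pons with a log2 difference of 1.04. At a fold above 4, CBLN1 and CBLN3 were left, where 589 of the 16829 genes tested were called.

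Over the 120 pairs of region groups, CBLN4 differed at an FDR under 0.05 in 102 pairs, CBLN1 in 99, CBLN2 in 90, CBLN3 in 88 and GRID1 in 87. Over all genes 61.6% of pairs were called, with a median of 77 pairs a gene and quartiles of 62 and 89. The counts of GRID1 and CBLN3 lay within these quartiles. The CV between animals, taken as the median over the 51 sub-regions, was 10.5% for GRID1 and 17.1% for CBLN2. It was 21.3% for CBLN4, 30.6% for CBLN1 and 33.2% for CBLN3.

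All 5 genes differed between cortex and cerebellum in the region group test, where 67% of all genes did. For each of the 5 the 8 animals went the same way with no overlap of the groups. The share of all genes without overlap was not computed, for this or any other comparison, so the lack of overlap only describes the members. CBLN1 was 106-fold and CBLN3 256-fold higher in the cerebellum (log2 differences of cortex over cerebellum -6.72 ± 0.41 and -8.00 ± 0.21). CBLN2 was higher in the cortex by a log2 difference of 7.87 ± 0.53 and CBLN4 by 9.11 ± 0.53, and since the CBLN4 counts in the cerebellum are near 0 the size of that fitted value depends on how such counts are treated. GRID1 differed by 0.66 ± 0.08, or 1.58-fold, higher in the cortex.

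Across the 51 sub-regions, the mean log2(CPM + 1) of CBLN2 and CBLN4 had a Pearson r of 0.89 and that of CBLN1 and CBLN3 an r of 0.75. CBLN3 ran against CBLN2 (r = -0.64) and CBLN4 (r = -0.59), while GRID1 had an r between -0.37 and 0.34 with the cerebellins. These values describe sub-regions that come from the same 8 animals, and the many cortical sub-regions weigh heavily in them.

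The genes whose sub-region pattern was most like that of a member were found by the same measure. For CBLN1 these were TRIM67 (r = 0.92), FGFR1 (0.88), a fibroblast growth factor receptor, and UNCX (0.87), a homeobox transcription factor. For CBLN2 they were CHRM3 (0.90), the M3 muscarinic receptor, MCHR1 (0.89), the receptor of melanin-concentrating hormone, and RGS4 (0.89), a regulator of G protein signalling. For CBLN3 they were PTH2 (0.98), SLC22A31 (0.98) and KASH5 (0.97). For CBLN4 they were PRKG2 (0.89), a cGMP-dependent kinase, ZBTB7C (0.87) and again CHRM3 (0.87). For GRID1 they were MYBPC1 (0.93), ETNPPL (0.91) and BCAN (0.91), the last of which encodes the matrix proteoglycan brevican.

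Within the cerebellum no member was called between vermis and cerebellar cortex. CBLN1 held 701 ± 107 CPM in the cerebellar cortex and 717 ± 96.1 CPM in the vermis, and the log2 difference of vermis over cerebellar cortex was 0.05 ± 0.06 (FDR 0.673). CBLN3 held 711 ± 185 and 625 ± 87.6 CPM, with a log2 difference of -0.15 ± 0.10 (FDR 0.46). GRID1 held 27.3 ± 3.71 and 26.3 ± 2.61 CPM, with a log2 difference of -0.04 ± 0.09 (FDR 0.832). None of these 3 was called by edgeR or by DESeq2, and none had an unadjusted edgeR p under 0.05, where 0.842% of all genes were called by edgeR. CBLN2 and CBLN4 had too few counts for this test.

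The wide spread of CBLN3 in the cerebellar cortex came from 1 library. Rhesus 4 had 1130 CPM of CBLN3 against 545 to 779 in the other animals, and its GRID1 was the highest there, 34.5 CPM against 23.7 to 29.6. That library also held 283 CPM of the Purkinje cell gene ITPR1 against 1465 to 2268, but 501 CPM of SLC1A6, another Purkinje cell gene, against 193 to 252. Without it, CBLN3 in the cerebellar cortex was 651 ± 80.7 CPM. The part of tissue makeup in this library was not tested.

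In the hippocampus, 0 of the 5 members were called over the dentate gyrus, CA1 and CA3 by edgeR, where 32.7% of all genes were, and DESeq2 also called 0. At an unadjusted edgeR p under 0.05 there were 2, CBLN1 and CBLN3. FDRs were 0.0971 for CBLN1, 0.106 for CBLN3, 0.266 for CBLN2, 0.498 for CBLN4 and 0.877 for GRID1. In the test of single pairs CBLN3 was lower in the dentate gyrus than in CA1, at 1.59 and 2.25 CPM, with a log2 difference of -0.52 ± 0.19 (FDR 0.0486, 31.5% of all genes called). That call was lost without the animal as a block (-0.51, FDR 0.224), with DESeq2 (FDR 0.0718) and with any animal but Rhesus 4 left out (FDR 0.0517 to 0.131). CBLN4 stood out in CA3 of Rhesus 8 with 48.9 CPM against 13.4 to 23.9, in a library with a choroid plexus marker level of 4.28 (mean log2(CPM + 1)) against 0.63 to 2.27 in the others. The part of choroid plexus tissue in the CBLN4 value was not tested.

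In the striatum, 4 of the 5 genes differed over its 3 nuclei (57% of all genes did), the exception being CBLN3 with an FDR of 0.0503. In the test of single pairs CBLN3 was lower in the accumbens (1.86 ± 0.666 CPM) than in the putamen (2.70 ± 0.970 CPM), with a log2 difference of -0.53 ± 0.19 (FDR 0.0294, 45.4% of all genes called). That call was lost without Rhesus 2, 3, 6, 7 or 8 (FDR 0.0558 to 0.117) and without the animal as a block (FDR 0.125). CBLN4 was higher in the accumbens, where the animals held 3.39 to 32.1 CPM with a median of 13.2 and a mean of 15.9 ± 9.28. The caudate held 3.89 ± 2.23 and the putamen 3.09 ± 1.15 CPM. The ranges overlapped, but the accumbens was above the caudate in 7 of 8 animals (log2 difference 2.00 ± 0.29, FDR 5.43e-05, 34.5% of all genes called) and above the putamen in 8 of 8 (2.29 ± 0.30, FDR 3.49e-06, 45.4% called).

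CBLN2 formed a slope through the same nuclei, with 37.5 ± 9.49 CPM in the accumbens, 28.6 ± 9.37 in the caudate and 16.5 ± 14.03 in the putamen. The accumbens was above the putamen by a log2 difference of 1.40 ± 0.23 (FDR 5.74e-05) and the caudate above the putamen by 0.93 ± 0.23 (FDR 0.00447, 30.4% of all genes called), whereas accumbens and caudate were not separated (0.46 ± 0.22, FDR 0.105) unless Rhesus 3 was left out (0.51, FDR 0.0386). Without the animal as a block, the caudate and putamen were not separated either (0.79, FDR 0.0785). The putamen of Rhesus 3 had 49.97 CPM against 6.36 to 17.3 in the other animals, together with 112 CPM of SLC17A7 against 0.223 to 4.02. Without that library the putamen held 11.7 ± 4.05 CPM, and without that animal the differences over the putamen were 1.69 for the accumbens and 1.18 for the caudate.

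CBLN1 was low throughout the striatum, but was lower in the caudate (1.57 ± 0.825 CPM) than in the putamen (3.25 ± 0.536 CPM) in 8 of 8 animals, with a log2 difference of -1.13 ± 0.30 (FDR 0.00753). GRID1 was higher in the caudate in 8 of 8 animals, 73.0 ± 6.69 against 60.7 ± 3.84 CPM, with a log2 difference of 0.26 ± 0.07 (FDR 0.00816). The accumbens held 65.8 ± 9.81 CPM of GRID1 and was called against neither, though without Rhesus 6 it was called below the caudate (-0.21, FDR 0.0382).

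**Figure D2:**
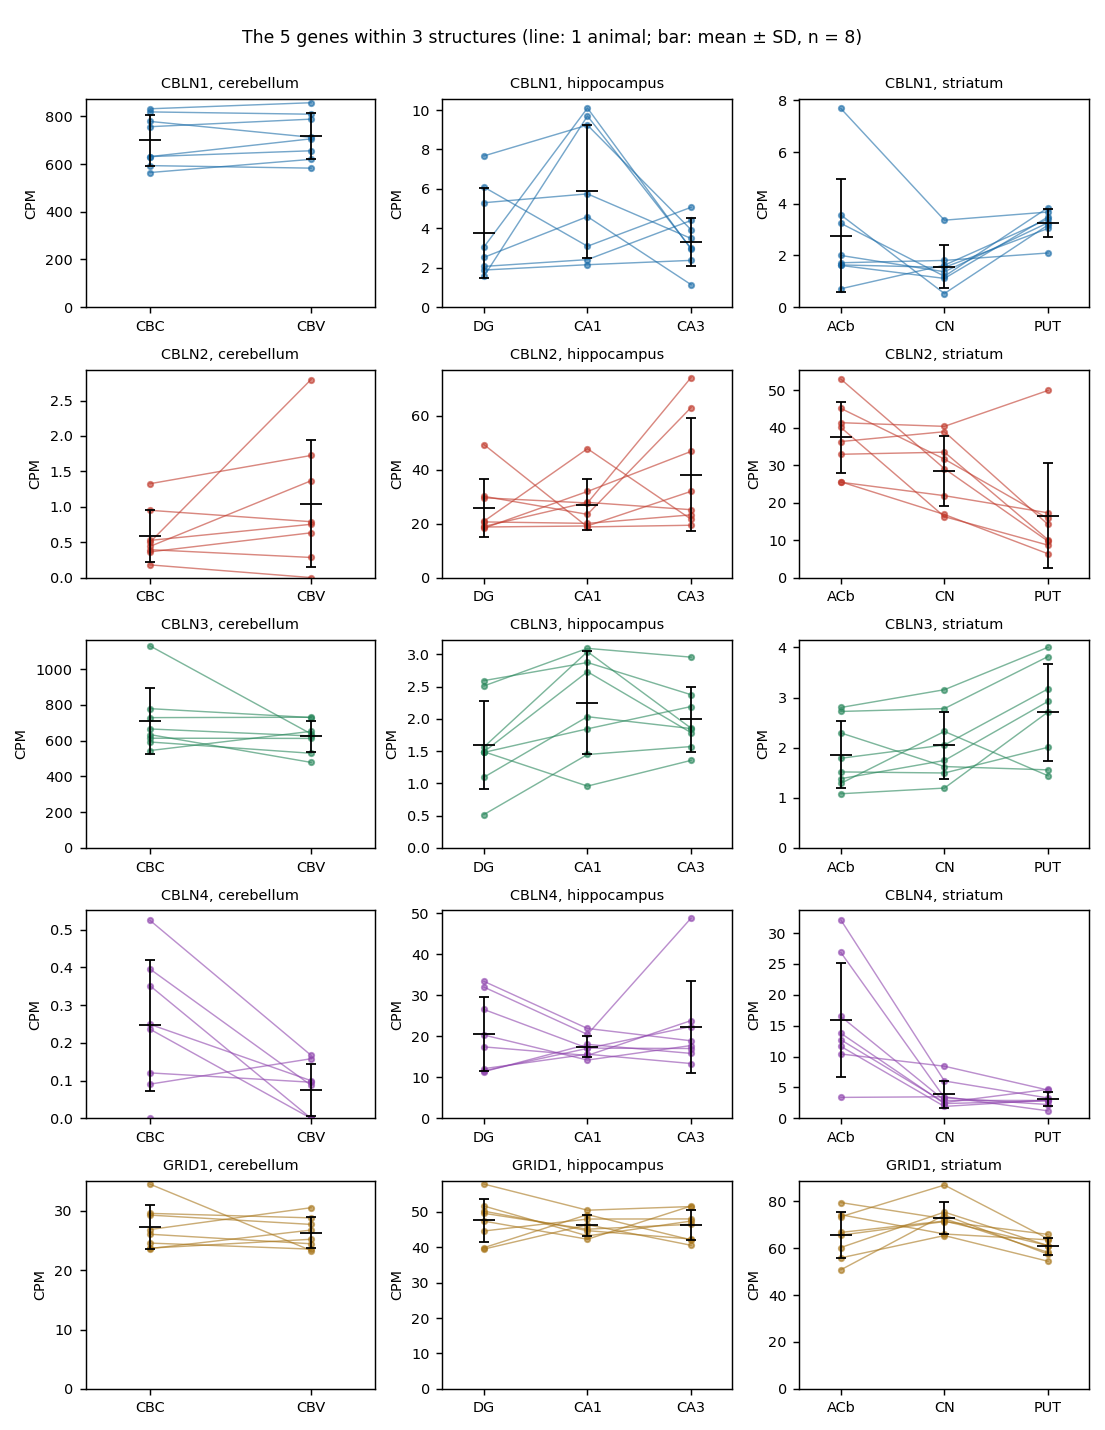
Levels (CPM after TMM scaling, linear axes from 0 that differ between panels) in the sub-regions of the cerebellum (cerebellar cortex CBC, vermis CBV), hippocampus (dentate gyrus DG, CA1, CA3) and striatum (accumbens ACb, caudate CN, putamen PUT), where each line joins the values of 1 animal and the bar is the mean with the SD over 8 animals. CBLN4 is higher in the accumbens than in the putamen in 8 of 8 animals, CBLN2 has its lowest striatal mean in the putamen, where 1 animal at 49.97 CPM lies above the rest, and the lines cross in the hippocampal panels.

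The cortex was not uniform. Over the 5 lobes, 4 of the 5 genes differed (61.5% of all genes did), and CBLN3 did not, with an FDR of 0.275. CBLN2 showed the largest difference of the members between front and back. The frontal lobe held 274 to 317 CPM with a median of 296 and a mean of 295 ± 14.5, and the occipital lobe held 52.7 to 95.0 CPM with a median of 63.2 and a mean of 67.3 ± 13.9. The ranges lay far apart and the fitted difference was 4.32-fold, a log2 difference of 2.11 ± 0.06 (FDR 4.94e-24, 59.5% of all genes called).

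The other lobes lay between for CBLN2, with 161 ± 8.52 CPM in the parietal lobe, 145 ± 16.8 in the limbic cortex and 127 ± 9.83 in the temporal lobe. The frontal lobe was above the parietal lobe by a log2 difference of 0.84 ± 0.06 (36.4% of all genes called), and limbic and temporal cortex were not separated (FDR 0.0646, 12.3% called). Parietal over limbic cortex passed narrowly (0.19 ± 0.06, FDR 0.0285, 15% called) and missed the threshold with any animal but Rhesus 7 or Rhesus 11 left out (FDR 0.052 to 0.134) and without the animal as a block (FDR 0.349). Without Rhesus 11 the temporal lobe was called below the limbic cortex (-0.15, FDR 0.0434).

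CBLN1, though low in the cortex, ran the same way from 5.59 to 11.1 CPM in the frontal lobe (mean 8.55 ± 1.88) to 1.56 to 2.88 CPM in the occipital lobe (mean 2.36 ± 0.441). The groups did not overlap, and the fitted difference was 3.56-fold, a log2 difference of 1.83 ± 0.08 (FDR 2.6e-19). The frontal lobe and limbic cortex (7.78 ± 1.18 CPM) were not separated (FDR 0.195, 14.5% of all genes called).

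CBLN4 differed less, with 106 ± 12.96 CPM in the frontal and 60.3 ± 10.7 CPM in the occipital lobe, a log2 difference of 0.79 ± 0.06 (FDR 2.87e-14) with no overlap. Its parietal level, 107 ± 18.2 CPM, was not separated from the frontal one, with a log2 difference of frontal over parietal of -0.02 ± 0.05 (FDR 0.764). GRID1 went from 46.95 ± 2.79 to 37.7 ± 2.56 CPM, a log2 difference of 0.31 ± 0.04 (FDR 1.82e-08), again with no overlap and with 8 of 8 animals higher in front.

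Cell type markers moved along the same axis. The mean log2(CPM + 1) of the 6 oligodendrocyte markers was 6.61 to 7.14 in the frontal lobe of the 8 animals and 7.50 to 8.21 in the occipital lobe. The 3 astrocyte markers ran from 9.15 to 9.60 in front and from 8.37 to 8.91 behind, and the 4 markers of cortical excitatory neurons from 7.03 to 7.28 and from 6.50 to 7.04. The 3 thalamic markers were at 3.64 to 4.03 and 4.73 to 4.99. Their part in the differences of the members was not tested.

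Among single gyri, for CBLN2, the posterior superior frontal gyrus was highest with 378 to 446 CPM and a mean of 418 ± 22.96, and it was the top sub-region in 5 of 8 animals. The inferior and superior precentral gyri followed with 384 ± 44.5 and 370 ± 57.5 CPM. The posterior superior occipital gyrus was lowest with 35.3 to 74.6 CPM and a mean of 53.1 ± 11.5, the lowest sub-region in 7 of 8 animals. The highest and lowest means differed 7.88-fold. The insula, counted with the frontal lobe, held 123 ± 15.95 CPM, and the superior postcentral gyrus 122 ± 16.7.

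CBLN1 peaked instead in the anterior cingulate gyrus, at 13.8 ± 3.26 CPM and highest in 5 of 8 animals, and was lowest in the posterior superior occipital gyrus at 1.99 ± 0.877 CPM, a 6.97-fold span of means. CBLN4 was highest in the inferior and superior precentral gyri (149 ± 17.7 and 143 ± 15.7 CPM) and lowest in the posterior superior occipital gyrus (54.0 ± 10.5), a 2.76-fold span. The spans of CBLN3 (1.56-fold) and GRID1 (1.34-fold) were smaller. In the fit of 31 cortical sub-regions, 4 of the 5 genes differed (75% of all genes did) and CBLN3 did not (FDR 0.197). The mean of 7 prefrontal sub-regions exceeded that of 3 occipital ones by log2 differences of 1.90 ± 0.09 for CBLN1, 2.16 ± 0.06 for CBLN2, 0.70 ± 0.05 for CBLN4 and 0.33 ± 0.04 for GRID1, where 67.6% of all genes differed.

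**Figure D3:**
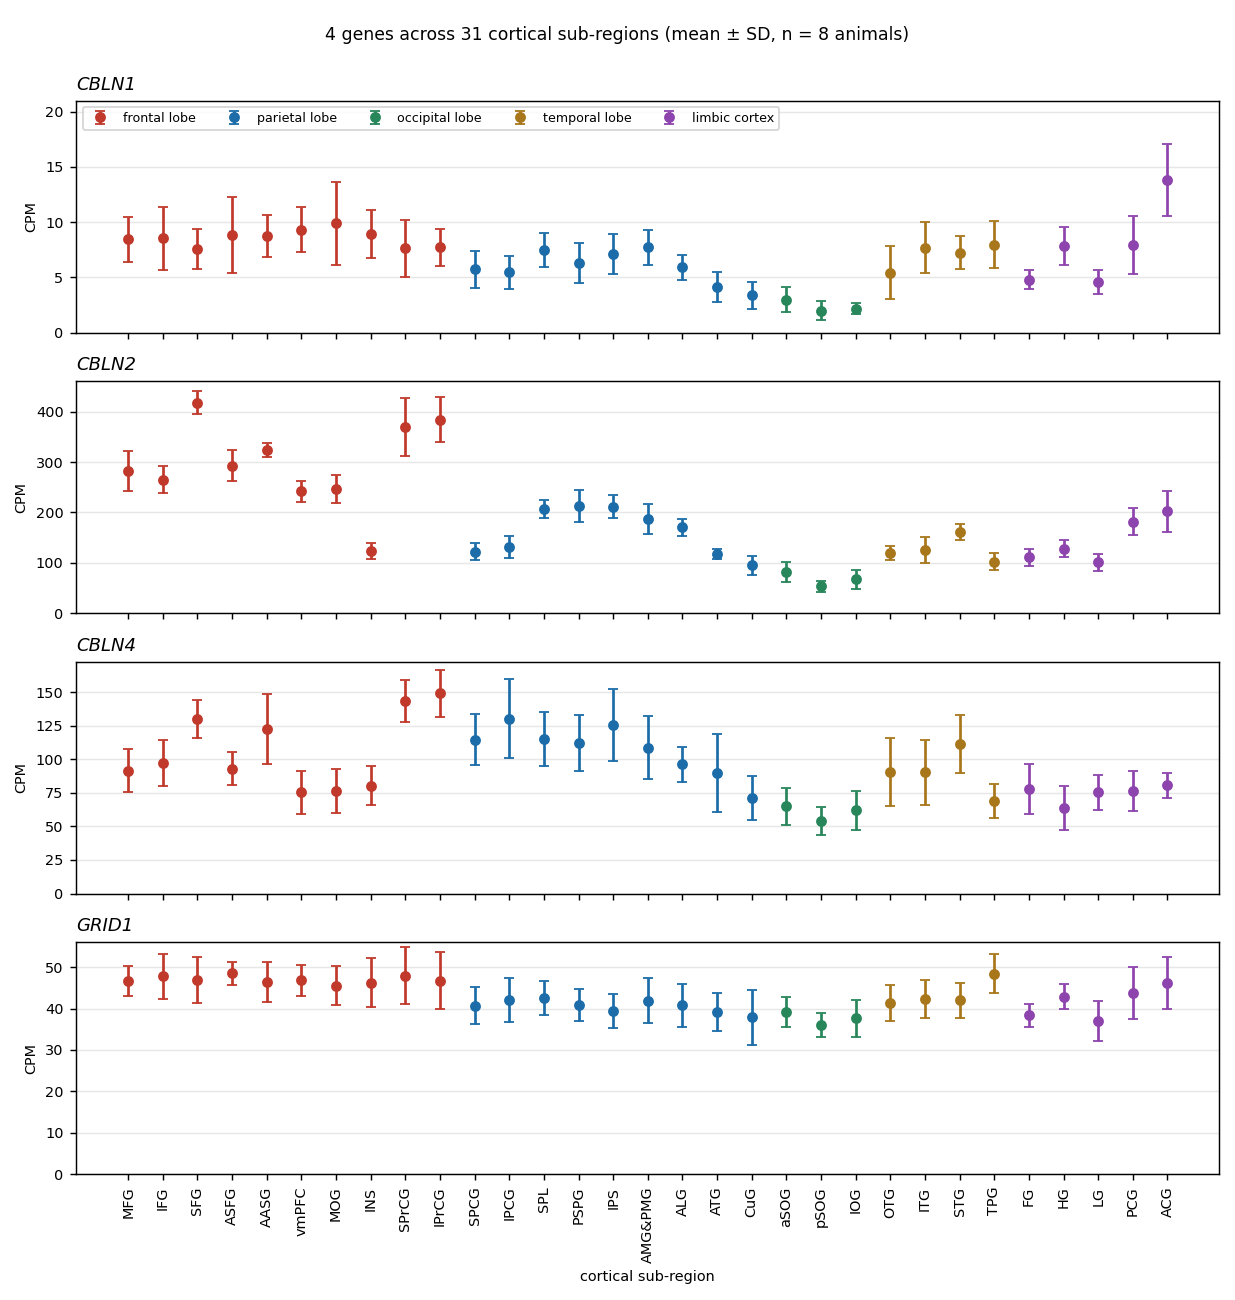
Mean level of CBLN1, CBLN2, CBLN4 and GRID1 in the 31 cortical sub-regions, coloured by lobe (CPM after TMM scaling, linear axes from 0, SD over 8 animals as error bars). CBLN2 runs from 418 CPM in the posterior superior frontal gyrus (SFG) to 53.1 CPM in the posterior superior occipital gyrus (pSOG), where CBLN1, CBLN4 and GRID1 are also lowest, and CBLN1 is highest in the anterior cingulate gyrus (ACG).

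In 4 of the 7 libraries that stood apart GRID1 stayed within the range of the other animals, and in the hypothalamus of Rhesus 6, the putamen of Rhesus 3 and the cerebellar cortex of Rhesus 4 it lay outside, with 49.9 CPM against 50.8 to 57.9, 54.4 against 57.5 to 65.9 and 34.5 against 23.7 to 29.6. With the hypothalamus and medulla of Rhesus 6 and the thalamus of Rhesus 8 left out of the region group test, the same 3 members were called and the CBLN2 difference of the cortex over its next group, now the pons, was 1.29 on the log2 scale.

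**Figure D4:**
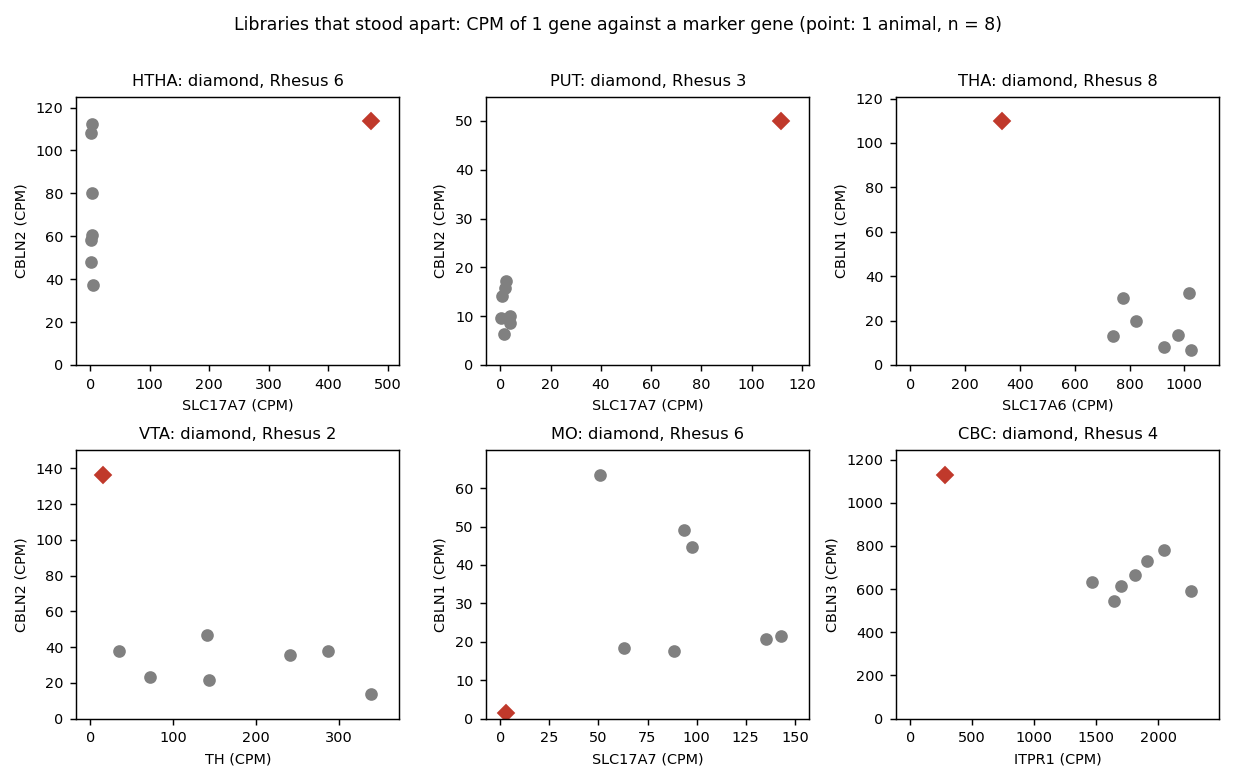
CPM of 1 member (vertical axis) against that of a marker gene (horizontal axis) in 6 sub-regions, each point 1 of 8 animals and the diamond the library that stood apart. In the thalamus (THA) of Rhesus 8, CBLN1 at 110 CPM lies above all other animals while SLC17A6 at 335 CPM lies below them, and in the putamen (PUT) of Rhesus 3 both CBLN2 (49.97 CPM) and SLC17A7 (112 CPM) lie above them.

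The genes around the cerebellins were taken from a list of 9 partners, all of which were tested. DCC, the netrin receptor, was called for the corpus callosum, with 49.7 to 73.7 CPM and a mean of 62.8 ± 7.44, 2.19-fold above the globus pallidus. DCC was at 3.74 CPM in the cerebellum. This call was lost without Rhesus 4 (log2 difference 0.82 over the next group) and without the animal as a block (0.9995). NEO1, a receptor related to DCC, was also highest in the corpus callosum at 317 ± 24.3 CPM but was not called for it. Of the neurexins, the axonal receptors of cerebellins, NRXN3 had its highest mean in the cerebellum (187 ± 30.8 CPM), a fitted 1.19-fold above the olfactory bulb. NRXN2 held 382 ± 59.9 CPM in the cerebellum, 380 ± 35.2 in the entorhinal and perirhinal cortex and 372 ± 32.7 in the amygdala, and its ranges there overlapped. Neither was called for a group.

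Among the C1q-like genes, whose secreted products belong to the same family, C1QL2 was highest in the hippocampus (82.1 ± 21.8 CPM). C1QL3 was highest in the amygdala (453 ± 140 CPM) and C1QL4 in the olfactory bulb (8.91 ± 4.29 CPM). The fitted folds over the next group were small. They were 1.25 over the amygdala for C1QL2, 1.23 over the hippocampus for C1QL3 and 1.29 over the ventral tegmental area for C1QL4. The highest mean of C1QL1, in the medulla, rests on Rhesus 3 with 345 CPM against 5.20 to 93.5 in the other animals, and the median there was 18.02 CPM. ADGRB3, a receptor of C1q-like proteins, was highest in the amygdala at 181 ± 34.2 CPM, a fitted 1.01-fold above the cortex. So 1 of 9 partners, DCC, was called for a group, beside 11.5% of all genes. Between cortex and cerebellum, 5 partners were higher in the cortex (32% of all genes), 2 were lower (35%) and 2, NEO1 and ADGRB3, were not called. Those lower were NRXN2 (log2 difference -0.67 ± 0.10) and NRXN3 (-0.72 ± 0.24), and those higher ran from C1QL4 (1.501 ± 0.60) to C1QL3 (4.88 ± 0.43). The median log2 difference was 1.501 for the partners and -0.03 for all genes tested.

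Other ligands of neurexins, the neuroligins and LRRTM proteins, formed a list of 7, of which 5 were tested. LRRTM1 (log2 difference of cortex over cerebellum 3.33 ± 0.18) and LRRTM4 (1.66 ± 0.22) were higher in the cortex, while NLGN1, NLGN3 and LRRTM3 were not called. None of the 5 was called for a region group. LRRTM1 was highest in the thalamus at 120 ± 19.2 CPM and LRRTM3 in the striatum at 64.1 ± 11.2 CPM, the group where GRID1 was also highest.

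**Figure D5:**
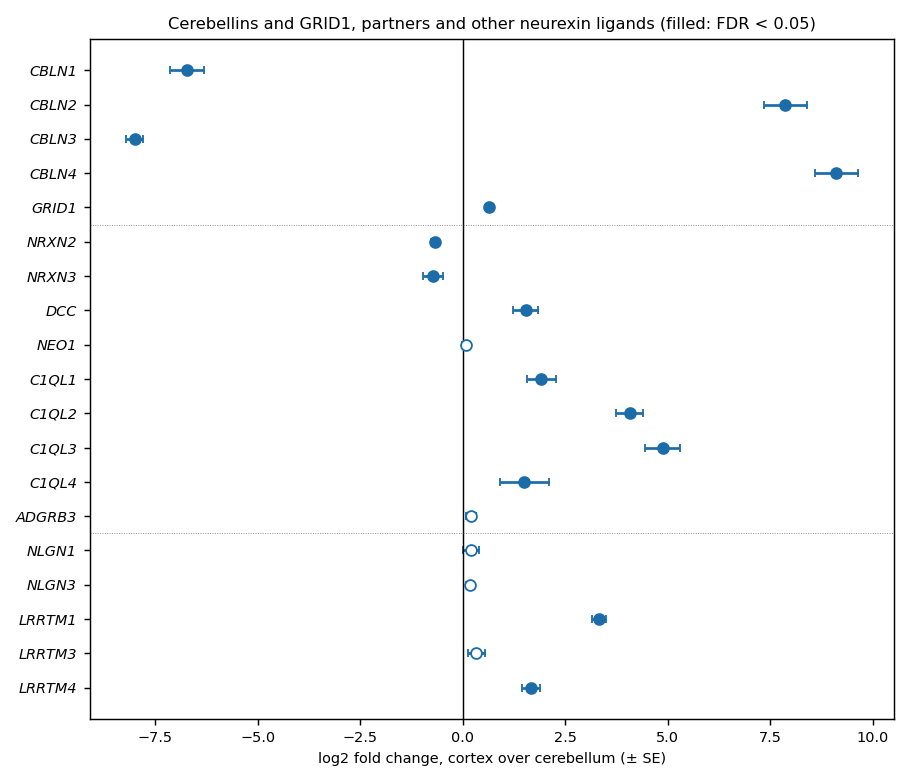
Log2 difference of cortex over cerebellum from the region group test, with the SE as error bar, for the 5 members, the 9 partner genes and the 5 neurexin ligands tested, where filled points have an FDR under 0.05. CBLN1 and CBLN3 lie far to the cerebellar side (left), CBLN2, CBLN4 and C1QL3 far to the cortical side, and NRXN2 and NRXN3 near 0 on the cerebellar side.

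Age and sex were compared in each of the 16 groups with 4 animals a side, at an FDR under 0.1 and a log2 difference beyond 1. Of 80 pairs of a member and a group 76 could be tested, and neither edgeR nor DESeq2 called any of them for age or for sex. Over all genes 0.0164% of such pairs were called for age and 0.105% for sex. At an unadjusted p under 0.05, edgeR found 12 pairs for age, or 15.8% against 5.73% over all genes, and DESeq2 also 12. For sex it found 8, or 10.5% against 3.54% over all genes, and DESeq2 10. The lowest FDR was 0.3 for age and 0.335 for sex, and the members share their animals across groups.

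In mid-aged animals the fitted level of CBLN1 was below that of young animals in 11 of 14 groups tested, none of which passed. The pairs given below were picked because the stages or sexes did not overlap in them, from 80 pairs for age and 80 for sex. With 4 animals a side some pairs separate by chance, and the share of all genes without overlap was not computed. In the cerebellum the mid-aged animals held 589 to 669 CPM and the young ones 746 to 845, with no overlap and means of 624 ± 39.4 and 795 ± 43.8. The log2 difference of mid-aged over young was -0.34 with an FDR of 0.855, so it did not pass over all genes. In the cortex the stages did not overlap either, with 5.50 to 6.17 CPM in mid-aged and 7.37 to 8.65 CPM in young animals (log2 difference -0.47, FDR 0.684).

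CBLN4 in the thalamus had the lowest FDR, 0.3, with 32.1 to 44.9 CPM in mid-aged and 47.4 to 93.9 CPM in young animals, a log2 difference of -0.92. The young values include 83.1 CPM in the library of Rhesus 8 with the low SLC17A6. Without Rhesus 7 it was called (-1.02, FDR 0.0246). CBLN4 in the corpus callosum went the other way, with 4.43 to 7.44 CPM in mid-aged and 0.925 to 3.69 CPM in young animals (log2 difference 1.47, FDR 0.849). For sex, the fitted level of CBLN3 was lower in females in 15 of 16 groups, none of which passed, with the sexes apart in the corpus callosum (5.94 ± 0.822 CPM in females and 9.21 ± 2.22 in males, log2 difference -0.62, FDR 1). CBLN1 in the amygdala was 14.4 to 34.2 CPM in females and 9.04 to 13.3 CPM in males (log2 difference 0.89, FDR 0.99).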

How the data were processed

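The authors sequenced ribosomal RNA-depleted total RNA with a directional library kit. Per the labels and the submitters' processing notes, reads were trimmed with Trim Galore 0.4.4, aligned with HISAT2 2.0.5 and counted with HTSeq 0.6.1. The deposited table holds raw read counts per gene, and the strand setting of the counting is not given in the sources used here. Assembled transcripts and the chromatin data were not used here. Gene symbols came from the table of gene names, which paired 17572 of 30807 genes.

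Counts were summed over the sub-regions of a group within each animal, filtered with filterByExpr and fitted with edgeR 4.0.16 (R 4.3.3, quasi-likelihood F test, TMM) with the animal as a block, and p-values were adjusted by Benjamini-Hochberg over all genes tested. The animal number marks 1 macaque. Deviations from the group means had a mean correlation of 0.390 for samples of the same animal and -0.0532 for different animals. Taking deviations from the group means itself pulls the second value below 0, so it adds nothing to the first. Age and sex were fitted per group, each with the other as covariate. A call needed an FDR under 0.05, or under 0.1 with a log2 difference beyond 1 for age and sex. The SE is the log2 difference divided by the square root of F. Likeness of patterns is Pearson's r of mean log2(CPM + 1) over 51 sub-regions, and the 3 genes with the highest r are named for each member. Other named genes are the members, the 2 partner lists and cell type markers. Region groups follow the study. The fold of 2 is taken from its rule for sub-regions within the striatum, hippocampus and cerebellum, where it used a likelihood-ratio test. Here the comparisons within those structures asked for the FDR alone, without a fold. The age and sex cut-offs follow the study, but its FDR came from permutations of a mixed-effect model. Alternatives were DESeq2 1.42.0, its size factors in edgeR, the study's detection rule (a count above 1 in at least 3 samples), no block, a fold above 4, raw library totals, a pseudocount of 0.1, no covariate, each animal left out, and 1 chosen after seeing the data, 3 libraries left out. The fits were tested on simulated data. The members and lists were chosen with earlier results of these data known. No sequences or coordinates are given. Further partner genes are not reported here.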

Additional observations from a re-analysis of the deposited data

Results flagged for a closer look

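In 22 of 255 sets of 8 values (5 genes in 51 sub-regions, 8.63%), 1 animal lay far from the other 7, with a gap to its nearest neighbour above 0.526 of the whole range. For normally distributed values, chance would flag about 1 in 20 such sets. CPM values need not be so distributed, so the 8.63% cannot be read against that rate. Rhesus 3 was the animal in 5 of them and no other in more than 3.

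For CBLN1 these were the thalamus of Rhesus 8 (110 CPM against 6.81 to 32.4 in the others) and 3 sub-regions of Rhesus 10, the amygdala (34.2 against 9.04 to 18.9), the accumbens (7.69 against 0.712 to 3.57) and the caudate (3.37 against 0.526 to 1.81). Rhesus 6 was high for CBLN1 in the temporal polar gyrus (12.9 CPM against 5.53 to 8.36) and the cuneus gyrus (5.92 against 1.95 to 3.72), and Rhesus 4 was low in the putamen (2.10 against 3.05 to 3.85).

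For CBLN2 they were the ventral tegmental area of Rhesus 2 (137 CPM against 13.7 to 46.6), its dentate gyrus (49.4 against 18.3 to 30.1), CA1 of Rhesus 11 (47.8 against 18.8 to 31.9) and the putamen of Rhesus 3 (49.97 against 6.36 to 17.3). The superior parietal lobule of Rhesus 6 was low in CBLN2, with 167 CPM against 198 to 222.

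For CBLN3 the cerebellar cortex of Rhesus 4 stood at 1130 CPM against 545 to 779. Rhesus 3 was high for CBLN3 in 3 gyri, the posterior superior parietal (4.34 CPM against 1.87 to 2.96), the superior postcentral (4.58 against 1.44 to 2.79) and the inferior precentral (4.40 against 1.61 to 2.82). CBLN4 was high in the superior precentral gyrus of Rhesus 7 (179 CPM against 127 to 147), in CA3 of Rhesus 8 (48.9 against 13.4 to 23.9) and in the pituitary of Rhesus 11 (2.52 against 0.0893 to 1.08). GRID1 was high in the caudate of Rhesus 4 (87.0 CPM against 65.4 to 75.4) and the posterior superior frontal gyrus of Rhesus 7 (58.8 against 41.3 to 48.5), and low in the inferior occipital gyrus of Rhesus 3 (28.2 against 36.02 to 42.6).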

How the results depend on the processing

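Among the values of single genes under an alternative, 1536 were counted as unchanged, 59 lost a call and 11 gained one. The unchanged values include the likeness of patterns for each member, which has no threshold and was counted as unchanged with 1 of the 3 genes replaced. Only chosen pairs of region groups were refitted, and CBLN1 for amygdala over cortex was not among them. No called value turned its direction, whereas some values called in neither fit did, such as CBLN3 for cortex over thalamus (-0.10, up to 0.018 with an animal left out). Without the animal as a block 16 of the 59 were lost, among them CBLN2 for caudate over putamen (0.79, FDR 0.0785). Of 9 partner genes, 1 was called for a group, 0 without the block and 0 to 1 with an animal left out. With an animal left out, 0 to 1 members were called over the hippocampal sub-regions, CBLN2 without Rhesus 2 (FDR 0.0307), CBLN1 without Rhesus 3 (0.0328) or Rhesus 10 (0.0497) and CBLN3 without Rhesus 4 (0.0432), and 0 to 1 pairs were called for age. The difference of CBLN2 over its next group ranged from 0.925 to 1.22 and that of CBLN4 from 0.908 to 1.04 with an animal left out. With a pseudocount of 0.1, DOK7 took the place of UNCX beside CBLN1 and CRHBP that of ZBTB7C beside CBLN4. Counts limit CBLN2 and CBLN4 in the cerebellum, CBLN1 in the pituitary and the 4 pairs not tested for age.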
